A study of Populus tremula x Populus alba with 3 samples.

Results

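The libraries labelled KD2 and KD5, which are 2 of the 3 bud libraries of this poplar study, were set against each other gene by gene. Both RNA interference lines were made against PtaDML10 in INRA clone 717-1B4, a hybrid poplar (Populus tremula x Populus alba) much used for transformation. The comparison asks which functions separate 2 lines that carry a construct against the same gene. It took the 18879 of 41335 genes in the count table whose level averaged at least 5 CPM, the counts of a gene scaled to a common library size, over the 3 libraries. The wild type library of the same clone (WT) served as a level for reference.

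Each line and WT gave 1 library from apices, for which 15 apical buds were taken from 15 plants. All plants had 4 weeks of 16 h days at 21 °C, 12 weeks of 8 h days at 19 °C and 4 weeks at 4 °C in short days. They were then moved back to long days, and the buds were taken while still closed. Whether the 15 buds were pooled is not stated, nor is the promoter that drives the RNAi construct. With 1 library per line, a difference between the lines cannot be told apart from a difference between their plants or their libraries. A difference in the cells that a bud holds likewise cannot be told apart from a difference in RNA per cell. No test was possible, so folds are given with 95% counting intervals, which cover counting error only.

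DEMETER-like proteins are DNA glycosylases that cut methylated cytosines out of DNA, and in plants they help to open silenced genes. Water channels, or aquaporins, are membrane proteins through which cells take up and move water, as they do when a bud swells. Jasmonate is a stress and wound hormone derived from fatty acids. Its active form triggers the breakdown of the JAZ repressors, and JAZ genes are themselves switched on by the hormone.

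The KD2, KD5 and WT libraries held 4509887, 4692056 and 6829583 counts. The targeted gene, Potri.010G234400 (an identifier taken from published naming, not from the files), had 13.23 CPM in the library labelled KD2 (63 counts). It had 17.01 CPM in the library labelled KD5 (83 counts) and 9.59 CPM in WT (59 counts). The ratio of KD2 to KD5 was 0.778, with an interval of 0.551 to 1.09, so the lines were not separated at this depth. Neither library lay below WT, which goes against the knockdown the labels name. KD2 and KD5 therefore stand below for the libraries so labelled, and each direction drawn from them rests on that label.

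The 2 libraries were close at most genes and apart at few. Of the 18879 genes, 17456 (92.5%) lay within 1.5-fold, and the median log2 ratio of KD2 to KD5 was 0.00, with quartiles of -0.19 and 0.19. At least 2-fold higher in KD2 were 79 genes (0.418% of those compared), and at least 2-fold lower were 155 (0.821%). Either way this makes 234 genes, or 1.24%, and for 233 of them the counting interval also excluded equality. The side lower in KD2, and thus higher in KD5, held the larger ratios: 15 genes passed 4-fold there and 1 gene on the other side. Of the 155, 43 reached the filter only through KD5, as their mean over KD2 and WT was under 5 CPM. Of the 79, 23 reached it only through KD2 in the same way. Such genes had to differ between the lines to be compared, so the counts and ratios of each side are a description. Many of these genes were weakly expressed: 74 of the 155 and 33 of the 79 were in the least abundant 1888 of the genes compared.

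**Figure D1:**
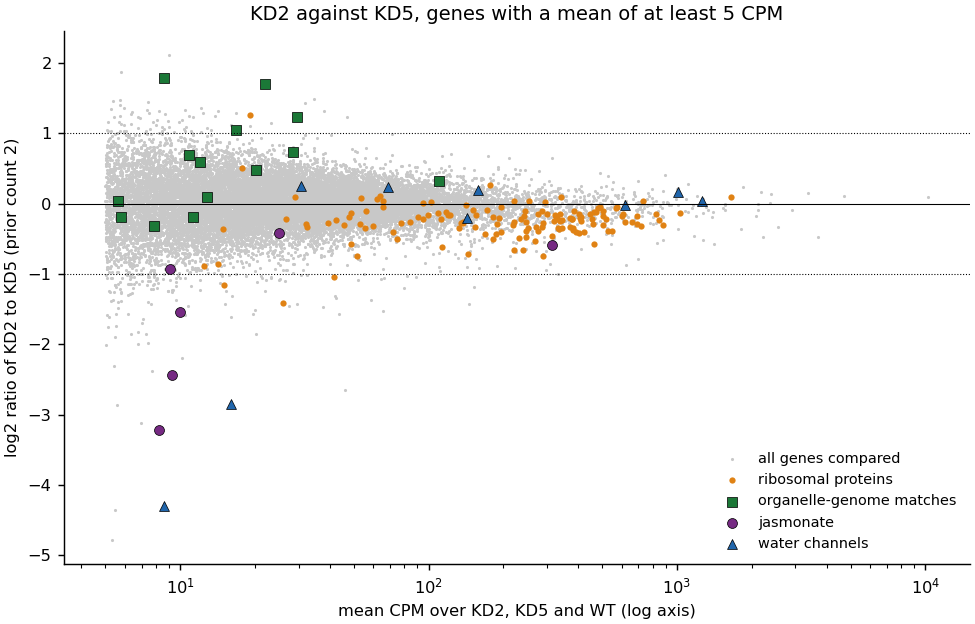
Log2 ratio of KD2 to KD5 (vertical axis, prior count 2) against the mean CPM over the 3 libraries (horizontal log axis) for 18879 genes in grey, with 4 gene lists in colour and dotted lines at 2-fold. Jasmonate genes and 2 water channels lie far below 0, matches to organelle genes lie mostly above it, and ribosomal protein genes form a band just below it.

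Names came from the authors' deposited table of genes that differ between the RNAi lines and WT. That table was drawn from these same libraries, so counts over named genes are not independent evidence. It names 1569 of the genes compared. Among these 13 were at least 2-fold higher in KD2 (0.829%) and 25 at least 2-fold lower (1.59%), against 0.418% and 0.821% over all genes. Of the 25, 9 reached the filter only through KD5, since their mean over KD2 and WT was under 5 CPM, and of the 13, 2 reached it only through KD2. These 11 genes had to differ between the lines to be compared at all, so their ratios are given as a description. The 9 are TPS21, an O-methyltransferase, TIP1;3, both JAZ10 matches, 1 JAZ1 match, CYP82G1, SAG21 and the match to AT5G05600, and the 2 are the matches to the Ycf4 locus and to DNA polymerase V.

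The genes of jasmonate synthesis and response that were compared were lower in the KD2 library than in the KD5 library. All 6 compared were lower, beyond counting error, where 49.4% of all genes were lower and 11.5% were so beyond counting error. Past 2-fold were 3 of the 6, against 0.821% of all genes. Those 3 are JAZ genes that reached the filter only through KD5, so they had to be lower in KD2 to be compared. Neither the counts over all 6 nor the list's median log2 ratio of -1.24 therefore supports a difference. The other 3, which reached it otherwise, had log2 ratios from -0.93 to -0.42. This list was set apart after its values had been seen.

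A JAZ10 match, Potri.001G062500, had 1.89 CPM in KD2, 20.7 CPM in KD5 and 2.11 CPM in WT. It was 11-fold higher in KD5 than in KD2, with an interval of 5.55 to 24.6, while KD2 and WT did not differ beyond counting error. JAZ10 is a repressor of the jasmonate response. The other JAZ10 match, Potri.003G165000, had 6.93 CPM in KD2, 20.9 CPM in KD5 and 2.11 CPM in WT, which put both lines above WT and KD5 furthest. JAZ1, another repressor of the same family, stood at 3.78 CPM in KD2, 22.1 CPM in KD5 and 1.79 CPM in WT for Potri.003G068900. Its other match, Potri.006G139400, was less far apart, with 25.2 CPM in KD2, 33.8 CPM in KD5 and 15.9 CPM in WT. KD5 was the highest library at all 4 of these JAZ genes, and KD2 was above WT at 3 of them. At 1 of the 3, Potri.003G068900, KD2 was within counting error of WT (ratio of KD2 to WT from 0.945 to 4.95).

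The enzymes of jasmonate synthesis had another order. LOX2, a lipoxygenase at the start of the pathway, had 3.36 CPM in KD2, 6.76 CPM in KD5 and 17.2 CPM in WT (Potri.001G015400). AOC3, an allene oxide cyclase, had 214 CPM in KD2, 321 CPM in KD5 and 407 CPM in WT (Potri.004G102500). For both enzymes WT was highest and KD2 lowest, so KD5 lay between.

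The largest ratios among named genes were at an O-methyltransferase and a terpene synthase, which both reached the filter only through KD5. Their lists did not share them: of 10 transferases compared, 7 were higher in KD2 with a median log2 ratio of 0.18, and the terpenoid list held no other gene. The O-methyltransferase family gene, Potri.013G121900, had 1 count in KD2, 77 counts in KD5 and 0 counts in WT, or 0.21, 15.8 and 0 CPM. KD5 exceeded KD2 75.2-fold, with an interval of 13.1 to 3007, and exceeded WT at least 32.4-fold against a floor of 3 counts per library, where the counting interval starts at 25.7. The match to TPS21, a sesquiterpene synthase in Arabidopsis, had 2 counts in KD2, 78 counts in KD5 and 0 counts in WT (Potri.001G415100). That is 0.42, 16.0 and 0 CPM, and KD5 was 38.1-fold above KD2 (10.2 to 320). CYP82G1, Potri.004G106600, which in Arabidopsis makes a volatile homoterpene, is a cytochrome P450 that also reached the filter only through KD5. It had 2.31 CPM in KD2, 10.5 CPM in KD5 and 2.28 CPM in WT, while of 12 P450 genes 5 were higher in KD2 and 7 lower.

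KD5 was also highest at an oxygenase that depends on 2-oxoglutarate and iron and an acyltransferase. The oxygenase Potri.006G101100, matched to AT5G05600, had 1.68 CPM in KD2, 17.4 CPM in KD5 and 1.79 CPM in WT. The acyltransferase of the HXXXD family, Potri.006G010300, had 7.35 CPM in KD2, 20.9 CPM in KD5 and 4.07 CPM in WT. SAG21, a small protein of the late embryogenesis abundant type linked to senescence and stress, stood at 4.41 CPM in KD2, 14.6 CPM in KD5 and 2.28 CPM in WT (Potri.002G203500). In these 3 genes KD5 was the highest library, and KD2 was within counting error of WT for the oxygenase and SAG21.

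Water channels split. TIP1;3, a channel of the vacuolar membrane, had 0.84 CPM in KD2, 23.6 CPM in KD5 and 1.30 CPM in WT (Potri.008G050700). KD5 was 28.1-fold above KD2 (10.7 to 105), a gene that had to be high in KD5 to be compared. PIP2;2, a channel of the plasma membrane, had 4.62 CPM in KD2, 35.5 CPM in KD5 and 7.97 CPM in WT (Potri.016G089500). WT thus lay between the lines and, in the TMM scaling used, beyond counting error from each. The interval of KD2 to WT ended at 0.977, so whether KD2 lay below WT beyond counting error depends on the scaling. The other 7 water channels compared had log2 ratios from -0.20 to 0.26, and the median of all 9 was 0.03. Among those 7, PIP1;4 had 1042 CPM in KD2, 1018 CPM in KD5 and 1730 CPM in WT (Potri.003G128600), with both lines below WT and close to each other.

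**Figure D2:**
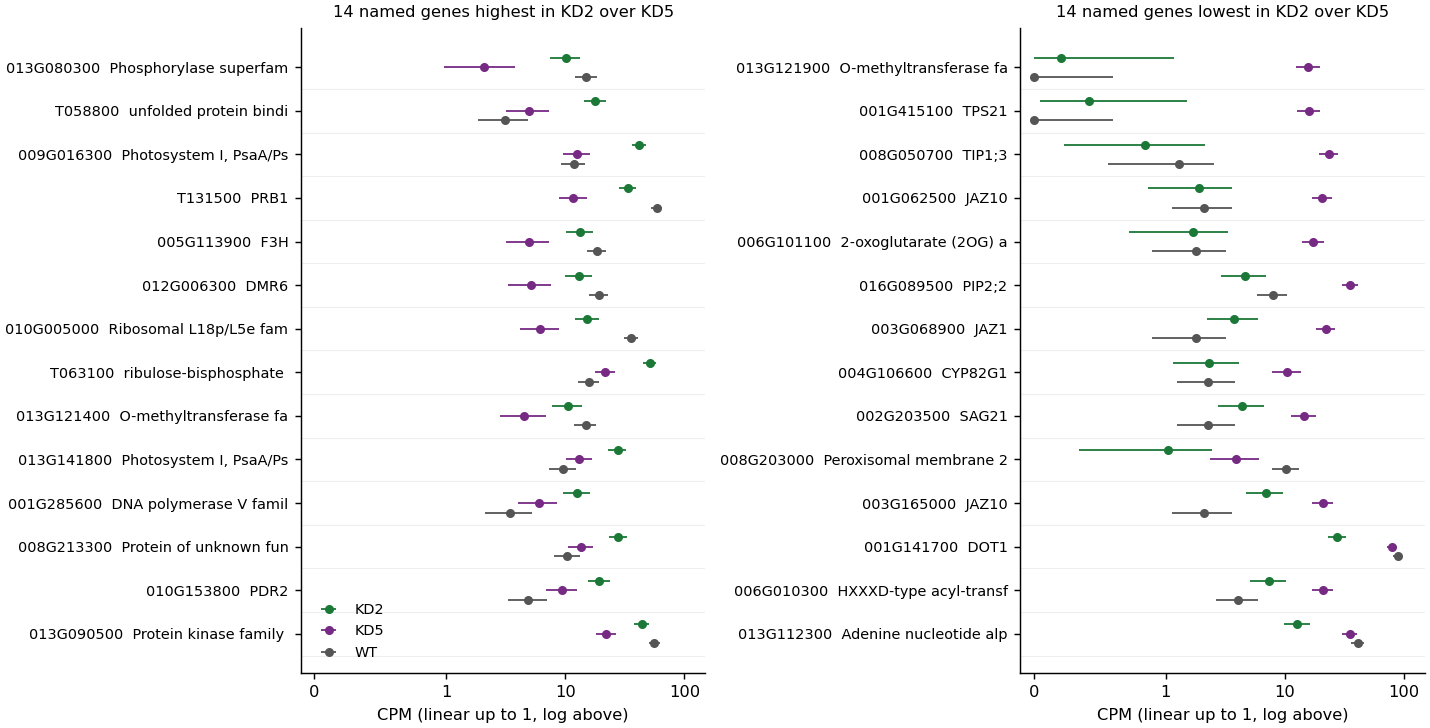
CPM (horizontal axis, linear up to 1 and logarithmic above) in KD2, KD5 and WT for the 14 named genes with the highest (left) and the 14 with the lowest (right) ratio of KD2 to KD5. Points are single libraries and bars are 95% Poisson counting intervals. For most genes at the top right KD5 stands alone while KD2 and WT overlap, as for TIP1;3 at 0.84 CPM in KD2, 23.6 CPM in KD5 and 1.30 CPM in WT.

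Among the gene lists, the one with the highest median ratio of KD2 to KD5 held poplar genes that the authors matched to Arabidopsis organelle loci. These are loci of the plastid and mitochondrial genomes. The poplar identifiers place these copies on nuclear chromosomes or scaffolds. Of 31 such genes, 14 reached 5 CPM. Of these 11 were higher in KD2, 9 beyond counting error, where 10.3% of all genes were so, and 4 passed 2-fold (0.418% of all genes did). Their median log2 ratio was 0.54, and their summed level was 416 CPM in KD2, 271 CPM in KD5 and 218 CPM in WT. The match to the Ycf4 locus, 1 of the 4, reached the filter only through KD2. The counts, median and sum thus include a gene that had to be higher in KD2 to be compared.

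Of the 4 past 2-fold, 3 were matched to photosystem I genes. Potri.T058800, matched to the plastid locus of the photosystem I assembly factor Ycf4, had 17.8 CPM in KD2, 4.92 CPM in KD5 and 3.09 CPM in WT. The match to psaB, which encodes a core protein of photosystem I, had 41.6 CPM in KD2, 12.5 CPM in KD5 and 11.7 CPM in WT (Potri.009G016300). For its partner psaA the levels were 27.5 CPM in KD2, 13.1 CPM in KD5 and 9.59 CPM in WT (Potri.013G141800). In all 3, KD5 did not differ from WT beyond counting error and KD2 stood above both. A match to rbcL, the large subunit of Rubisco, had 51.4 CPM in KD2, 21.7 CPM in KD5 and 15.8 CPM in WT (Potri.T063100). Reads from the plastid itself and from nuclear copies could not be told apart in these counts.

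Photosynthesis genes of the nucleus leaned slightly lower in KD2. Of 60 compared, 19 were higher in KD2 and 41 lower, and the median log2 ratio was -0.08. Beyond counting error 18 were lower and 1 was higher. Past 2-fold was 1, downward, which is near the background share of 1.24%. Of the 60, 58 are listed by the authors as lower in the RNAi lines. Of all compared genes so listed, 29.8% were higher in KD2, against 31.7% of these 60.

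A second kind of gene higher in KD2 was lowest in KD5 and highest in WT. A phosphorylase superfamily gene, Potri.013G080300, had 10.1 CPM in KD2, 2.05 CPM in KD5 and 15.0 CPM in WT, and was 4.92-fold higher in KD2 than in KD5 (2.46 to 10.9). PRB1, a basic pathogenesis-related protein, had 33.4 CPM in KD2, 11.7 CPM in KD5 and 58.5 CPM in WT (Potri.T131500). DMR6, an oxygenase that hydroxylates salicylic acid and restrains immunity in Arabidopsis, had 13.02 CPM in KD2, 5.12 CPM in KD5 and 19.0 CPM in WT (Potri.012G006300). In the TMM scaling used, the 3 libraries were apart beyond counting error for each of these. The interval of KD2 to WT ended at 0.965 for Potri.013G080300 and at 0.939 for DMR6. For these 2, whether KD2 lay below WT beyond counting error thus depends on the scaling.

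Flavanone 3-hydroxylase, an enzyme of the flavonoid pathway, had the same order, with 13.2 CPM in KD2, 4.92 CPM in KD5 and 18.4 CPM in WT (Potri.005G113900). The rest of its pathway did not follow it. Of 11 flavonoid and phenylpropanoid genes, 7 were higher in KD2 and 4 lower, and the median log2 ratio was 0.12. Chalcone synthase, the first enzyme of the pathway, had copies on both sides. Potri.014G145100 stood at 208 CPM in KD2, 155 CPM in KD5 and 309 CPM in WT, while Potri.003G176700 stood at 23.5 CPM in KD2, 37.3 CPM in KD5 and 60.8 CPM in WT. The other 13 pathogenesis-related genes compared had log2 ratios from -0.72 to 0.48, so PRB1 stood apart from them.

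Above 2-fold in KD2 were also 3 genes for which WT was lowest. PDR2, matched to a transporter of the pleiotropic drug resistance family, had 19.3 CPM in KD2, 9.43 CPM in KD5 and 4.88 CPM in WT (Potri.010G153800). The match to DNA polymerase V had 12.6 CPM in KD2, 5.94 CPM in KD5 and 3.41 CPM in WT (Potri.001G285600). A gene with a DUF789 domain had 27.7 CPM in KD2, 13.5 CPM in KD5 and 10.4 CPM in WT (Potri.008G213300). KD5 was within counting error of WT for the polymerase and DUF789 genes. A kinase with ARM repeats, Potri.013G090500, came next and just missed 2-fold at a log2 ratio of 0.98.

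Ribosomal protein genes differed little each but nearly all in 1 direction. Of 142 compared, 126 (88.7%) were lower in KD2 and 16 higher, where 49.4% of all genes were lower. Lower beyond counting error were 97 of the 142, against 11.5% of all genes, although intervals exclude equality more often at strong genes such as these. The median log2 ratio was -0.23, with quartiles of -0.34 and -0.14. Their summed level was 28882 CPM in KD2, 33574 CPM in KD5 and 58329 CPM in WT, so both lines were below WT and KD2 was further from it. Past 2-fold 3 were lower and 1 was higher, near the shares over all genes (0.821% and 0.418%). Of the 142, 137 are listed by the authors as lower in the RNAi lines, which makes all genes a distant reference. Of the compared genes so listed, 29.8% were higher in KD2, against 11.3% of the 142. Intervals excluded equality, in either direction, at 41.1% of the genes so listed and at 101 of the 142.

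The exceptions among the ribosomal genes were of several kinds. An L11 family gene, Potri.018G145200, had 13.02 CPM in KD2, 29.5 CPM in KD5 and 2.60 CPM in WT, and was thus above WT in both lines. The L18ae gene Potri.004G063300 kept the order of its group, with 19.9 CPM in KD2, 41.6 CPM in KD5 and 63.9 CPM in WT. Other lists leaned the same way: 22 of 29 nuclear genes of the respiratory chain and ATPase were lower in KD2 (median log2 ratio -0.28). So were 7 of 10 genes of the cold, drought and embryogenesis-abundant list (median -0.23). Of 66 RNA binding and splicing genes, 43 were lower in KD2 (median -0.07). Most genes of these 3 lists are listed by the authors as lower in the RNAi lines. Of all compared genes so listed, 29.8% were higher in KD2, where 50.6% of all genes were higher. In these lists 24.1%, 30% and 34.8% were higher, near the share of the listed genes. Their medians of -0.28, -0.23 and -0.07 stood against -0.15 for the genes so listed. The lists also hold 7, 3 and 14 genes listed as higher, so this reference is not exact. Whether the lean is particular to these functions was not tested.

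Histones, which package DNA and follow DNA replication, were lower in KD2 in 20 of 27 genes, with a median of -0.13. One histone passed 2-fold: Potri.005G115600, matched to a histone H4 locus, had 13.9 CPM in KD2, 28.5 CPM in KD5 and 55.0 CPM in WT. The 5 poplar genes of that locus were all lower in KD2, and summed to 590 CPM in KD2, 805 CPM in KD5 and 1639 CPM in WT. Of the ribosomal genes compared 137, and of the histones all 27, are among the 1240 compared genes that the authors' deposited table lists as lower in the RNAi lines. Those 1240 had a median log2 ratio of -0.15. The 594 it lists as higher had a median of 0.05. In both sets the median thus put KD2 slightly further from WT than KD5. Of the 1240, 29.8% were higher in KD2, near the 25.9% of the histones, so the lean of the histones is not particular to them.

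**Figure D3:**
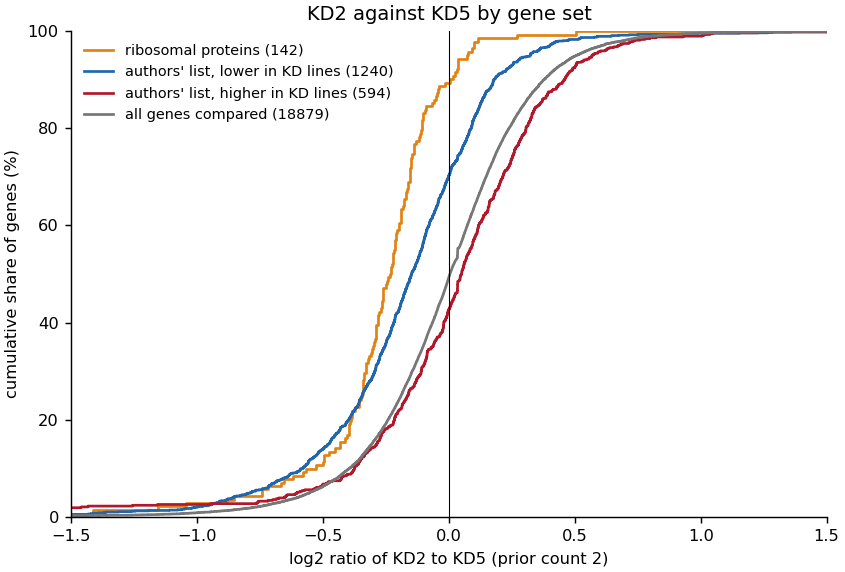
Cumulative share of genes (vertical axis, %) by log2 ratio of KD2 to KD5 (horizontal axis, prior count 2) for 142 ribosomal protein genes, for compared genes the authors list as lower (1240) or higher (594) in the RNAi lines, and for all 18879 genes. The ribosomal curve lies left of 0 for 88.7% of its genes, and the 2 listed sets lie on opposite sides of the curve for all genes.

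**Figure D4:**
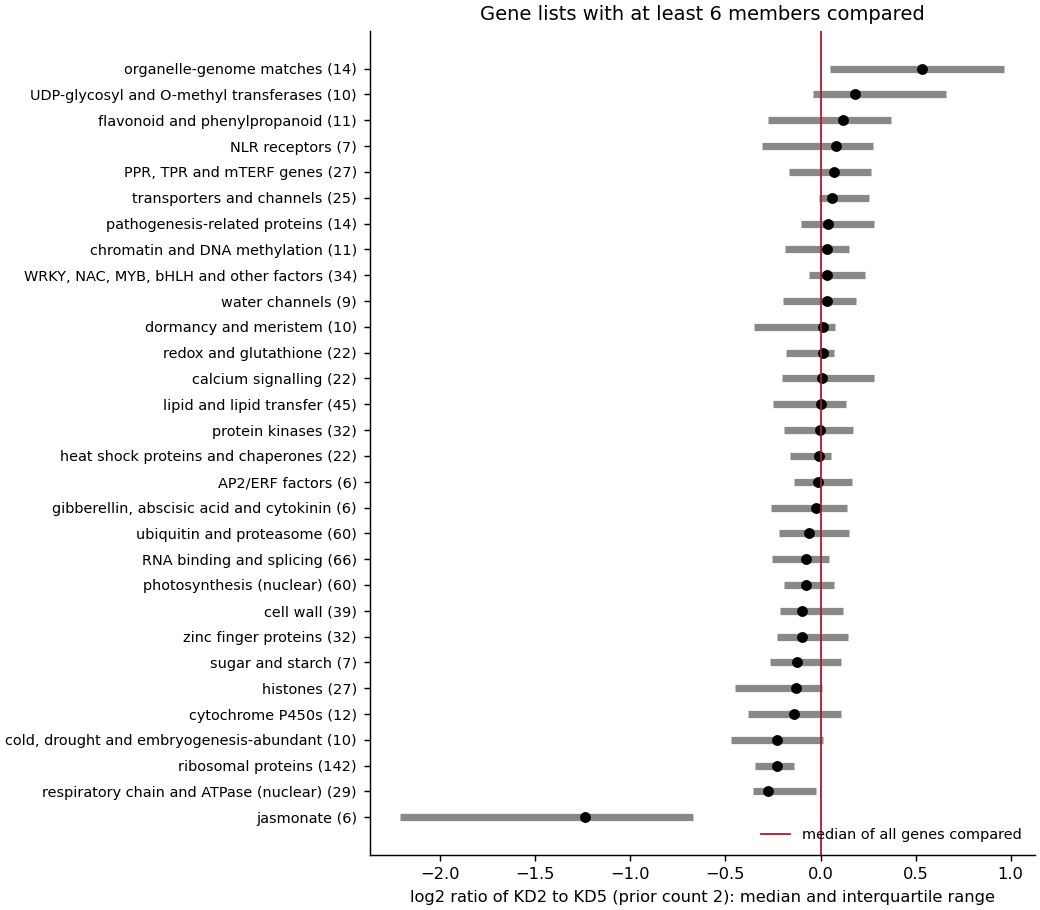
Median (point) and interquartile range (bar) of the log2 ratio of KD2 to KD5 (horizontal axis, prior count 2) for each gene list with at least 6 genes compared, with their number in brackets and the median of all genes as a line. Jasmonate, at -1.24, and organelle-genome matches, at 0.54, stand at the ends. Of the 6 jasmonate genes, 3 reached the filter only through KD5. Among the organelle-genome matches, the Ycf4 match reached it only through KD2.

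The clock and photoperiod list held 3 genes. GRP8, an RNA-binding protein under clock control, had 1581 CPM in KD2, 2192 CPM in KD5 and 2891 CPM in WT (Potri.004G155300), whereas PIF1 and COL2 had log2 ratios of -0.15 and 0.11. Genes for chromatin and DNA methylation were split, 6 higher in KD2 and 5 lower. Median log2 ratios were 0.03 for 34 transcription factors of the WRKY, NAC, MYB, bHLH and other families, -0.00 for 32 protein kinases, -0.06 for 60 ubiquitin and proteasome genes and -0.10 for 39 cell wall genes. None of these genes passed 2-fold, which at a background of 1.24% says little about lists of this size. One of 3 genes related to transposons was compared, Potri.017G022500, with 8.19 CPM in KD2, 6.97 CPM in KD5 and 2.93 CPM in WT.

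Poplar genes matched to 1 Arabidopsis locus mostly had close ratios, but 92.5% of all genes compared lay within 1.5-fold. The spread among unrelated genes was not computed, so the closeness is not shown to be particular to such copies. Of 245 loci with at least 2 genes compared, 8 had genes more than 2-fold apart in their ratio, and the median spread was 0.22 on the log2 scale. At 2 loci, genes passed 2-fold in opposite directions. At AT4G35160 the O-methyltransferase Potri.013G121900 was high in KD5. Potri.013G121400, from the same stretch of chromosome 13, went the other way with 10.5 CPM in KD2, 4.51 CPM in KD5 and 14.8 CPM in WT. The genes of that locus together summed to 23.7 CPM in KD2, 27.9 CPM in KD5 and 35.9 CPM in WT, closer than its members. At AT1G48350, a ribosomal L18p locus, Potri.010G005000 had 15.3 CPM in KD2, 6.15 CPM in KD5 and 35.8 CPM in WT. Its partner Potri.010G008200 had 7.77 CPM in KD2, 21.3 CPM in KD5 and 48.5 CPM in WT, and the pair summed to 23.1 CPM in KD2, 27.5 CPM in KD5 and 84.2 CPM in WT. How the counting divided reads between similar copies was not tested.

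Some named genes were low in KD2 relative to both other libraries. DOT1, a glycine-rich protein gene, had 27.7 CPM in KD2, 80.3 CPM in KD5 and 89.1 CPM in WT (Potri.001G141700). Its neighbour on chromosome 1, Potri.001G141800, has no name and had a log2 ratio of -1.86. A gene of the adenine nucleotide alpha hydrolase type, Potri.013G112300, had 12.8 CPM in KD2, 35.3 CPM in KD5 and 41.0 CPM in WT. In both named genes KD5 was within counting error of WT. A Mpv17/PMP22 gene of the peroxisomal membrane, Potri.008G203000, had 1.05 CPM in KD2, 3.89 CPM in KD5 and 10.2 CPM in WT, so that both lines were below WT.

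Set against WT, the 2-fold genes fell on different lines. Of the 79 higher in KD2, 35 were above WT in KD2 with KD5 within counting error of WT, and 26 were below WT in KD5 with KD2 within counting error of it. Of 154 lower in KD2 beyond counting error, 58 were below WT in KD2 alone and 40 were above WT in KD5 alone. A further 15 of the 154 were below WT in KD2 and above it in KD5, 22 were below WT in both lines, and 4 were above WT in both. Of the 79, 23 reached the filter only through KD2, and of the 155 lower in KD2, 43 reached it only through KD5. Such genes had to be high in that line to be compared, so the 35 and the 40 are a description. How many of the 35 and the 40 are such genes was not computed, nor was the same tally over all genes.

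The authors' deposited table treats both lines as 1 group, and most of its genes differed from WT in both. It was drawn from these same libraries for genes that differ from WT. High shares were therefore largely set by that selection and are no independent evidence that the lines agree. Of 594 compared genes that the table lists as higher, 577 (97.1%) were above WT beyond counting error in both lines. In 11 this held for KD5 alone and in 6 for KD2 alone. The 11 include TPS21, the O-methyltransferase, TIP1;3, PIP2;2, JAZ1, 1 of the JAZ10 matches, the AT5G05600 match, CYP82G1 and SAG21. The 6 include the matches to psaA, psaB and the Ycf4 locus. For TPS21, Potri.001G415100, the authors' deposited table gives a log2 fold change of 8.44 for the RNAi lines over WT (FDR 1.58e-09), while KD2 held 2 of the 80 reads behind it. Of 1240 genes listed as lower, 1237 were below WT in both lines.

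Most of the genes compared, 17310, have no name here. The highest ratios among them were at Potri.019G031200, with 7.77 CPM in KD2, 1.84 CPM in KD5 and 7.80 CPM in WT, and at Potri.016G053900, with a log2 ratio of 1.48. The lowest were at Potri.012G012100, with 1.05 CPM in KD2, 10.04 CPM in KD5 and 5.69 CPM in WT, and at Potri.018G093000, with 14.3 CPM in KD2, 91.4 CPM in KD5 and 33.0 CPM in WT. Along the genome no chromosome stood apart by its median, which does not show where the 2-fold genes lie. Shares per chromosome ran from 0% to 0.92% for genes at least 2-fold higher in KD2 and from 0.39% to 1.43% for those lower. Of 236 genes on scaffolds, 5 (2.12%) were higher and 5 (2.12%) lower, against 0.418% and 0.821% of all genes. Medians per chromosome ran from -0.02 to 0.02 over the 19 chromosomes, and the scaffold median was -0.05. In 4 pairs of neighbouring genes both passed 2-fold, 2 of them in the same direction. How many such pairs unrelated positions would give was not computed.

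The markers of bud tissues that had a name were present in all 3 libraries, and none was at 0. Names, from the authors' deposited table, covered 9 of 14 marker loci for green leaf, 3 of 7 for epidermis and 4 of 8 for meristem. For xylem they covered 1 of 8 loci and for phloem 1 of 4, and the other loci could not be looked up. The 16 green leaf genes compared, such as Rubisco small subunits and light-harvesting proteins, had a median log2 ratio of -0.03 and all 17 summed to 5287 CPM in KD2, 5724 CPM in KD5 and 11131 CPM in WT. Epidermal genes summed to 1629 CPM in KD2, 1396 CPM in KD5 and 2828 CPM in WT, with a median log2 ratio of 0.32 over 5. Meristem genes summed to 164 CPM in KD2, 205 CPM in KD5 and 328 CPM in WT, with a median of -0.29 over 5. SHOOT MERISTEMLESS, which maintains the shoot meristem, had 67.2 CPM in KD2, 89.2 CPM in KD5 and 149 CPM in WT (Potri.011G011100). For xylem 1 gene and for phloem genes of 1 locus had a name. Of the 5 meristem markers 3 were lower in KD2, and CUC3 and ANT, at log2 ratios of 0.25 and 0.26, were higher. The summed meristem, ribosomal and histone levels were all lower in KD2, and the part of tissue make-up in those results was not tested.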

How the data were processed

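RNA was sequenced from 1 library each of KD2, KD5 and WT. The deposited table holds whole-number counts per poplar gene. Per the submitters' processing notes, FastQC, TopHat and edgeR were used. The genome build, the read counter and all versions were not given in the sources used here. Per the file headers, the authors' deposited table gives a log2 fold change, an average log2 CPM, a p-value and an FDR for 2151 genes (764 higher and 1387 lower in the RNAi lines), plus Arabidopsis matches.

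Genes were kept for scaling with filterByExpr (minimum count 10; 23089 genes) and scaled by TMM in edgeR 4.0.16 (R 4.3.3), with factors of 1.06 for KD2, 1.044 for KD5 and 0.904 for WT. CPM are counts scaled to a common library size (counts divided by library total and TMM factor). Log2 ratios used a prior count of 2. Ratio intervals are exact conditional binomial 95% intervals, level intervals are exact Poisson, and floors are 3 counts per library (0.63 CPM in KD2, 0.615 in KD5, 0.488 in WT). Intervals and floors cover counting error only. "Within counting error" means that the interval of a ratio holds 1. The ratio and interval code was tested on simulated data. No p-value was computed, since each line has 1 library.

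The lists (34, by Arabidopsis match) and the members were chosen with earlier results of these data known, and some lists were amended after values had been seen. Genes were named by rule. The rule takes the targeted gene, the 14 named genes with the highest and the 14 with the lowest ratio whose interval excludes 1, and up to 3 genes past 2-fold per list and direction. It adds all members of lists of up to 5 genes and 2 genes without a name per direction. Other genes named were chosen after their values were seen. DESeq2 1.42.0 size factors, other scalings, filters, priors and folds were tried as alternatives. No sequence is shown, because no reference was used here.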

Additional observations from a re-analysis of the deposited data

Results flagged for a closer look

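At 3 of the genes named in the report WT lay between the lines and, in the TMM scaling used, beyond counting error from each. The lines thus stood on opposite sides of WT. The difference was not tested, since each line has 1 library. PIP2;2, Potri.016G089500, had a log2 ratio of KD2 to KD5 of -2.84, with KD2 at 0.58 of the WT level (0.334 to 0.977) and KD5 at 4.45-fold (3.22 to 6.24). Since the first interval ends close to 1, the place of KD2 below WT beyond counting error depends on the scaling factor of WT. Potri.012G012100, which has no name here, had a log2 ratio of -2.87, with KD2 at 0.184 of WT (0.0564 to 0.473) and KD5 at 1.76-fold (1.12 to 2.81). Potri.018G093000, also without a name, had a log2 ratio of -2.65, with KD2 at 0.433 of WT (0.324 to 0.572) and KD5 at 2.77-fold (2.34 to 3.29).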

How the results depend on the processing

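No paired analysis was possible because each line has 1 library, and for the same reason no replicate could be left out. The count of genes at least 2-fold higher in KD2 was 476 with a mean of at least 1 CPM, 7 with at least 20 CPM, 622 at 1.5-fold and 4 at 3-fold, against 79 in the report. The count lower in KD2 was 672, 33, 801 and 27 under the same settings, against 155. The median over all genes was 0.026 by library size only, -0.016 by upper quartile scaling and -0.0020 by DESeq2 size factors. The ribosomal median was -0.20 after a loess fit on level, and between -0.25 and -0.20 under all the scalings, so its sign held. None of the 13 alternatives turned the direction of a named gene.

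Where WT lies depends on its scaling factor. By library size only, WT was below both lines at 32.6% of genes higher in KD2, with KD2 the nearer line at 36.0%, against 21.5% and 50.6% in the TMM scaling used. At genes lower in KD2 it was above both at 21.7% and between at 62.9%, with KD2 nearer at 42.7%, against 34.8%, 54.2% and 34.2% by TMM. Among genes of at least 20 CPM, KD2 was nearer at 28.6% of genes higher in KD2. For genes lower in KD2 at that level, WT was above both at 60.6%, between at 39.4% and below both at 0%, with KD2 nearer at 18.2%. With TMM from KD2 and KD5 alone WT has no factor, so its side was not computed. Depth limits weak genes most: intervals excluded equality at 14.2% of the 1888 weakest genes and 46.2% of the 1888 strongest.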

Other observations

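Among 237 named genes under 5 CPM on average, 19 were at least 2-fold lower in KD2 beyond counting error and 11 at least 2-fold higher. They were chosen after their values were seen, and a gene enters this count only if its reads suffice for an interval. The same shares over all genes under 5 CPM are not given here. The 19 and the 11 are thus a description and no result about the named genes or about either line. ABR1, a factor of the AP2/ERF family that represses abscisic acid responses in Arabidopsis, had 2 matches among them. Potri.005G087200 had 0 counts in KD2, 34 in KD5 and 0 in WT, which makes KD5 at least 11.1-fold higher than KD2 and at least 14.3-fold higher than WT, against 3 counts per library. The counting intervals of these ratios start at 8.52 against KD2 and at 11 against WT. Potri.005G195000 had 4 counts in KD2, 46 in KD5 and 4 in WT, a ratio of KD5 to KD2 of 11.2 (4.10 to 42.9). No gene with at least 20 counts in KD2 was at 0 in KD5, and 2 genes were the other way round. The second was Potri.006G101200, the other match to the AT5G05600 oxygenase, with 0 counts in KD2, 21 in KD5 and 0 in WT.

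Further jasmonate genes and TIP1;3 matches in this range were also highest in KD5. CYP94C1, a cytochrome P450 that oxidises the active jasmonate in Arabidopsis, had 4 counts in KD2, 35 in KD5 and 2 in WT at Potri.004G185300. At its other match, Potri.009G145400, the counts were 1 in KD2, 16 in KD5 and 0 in WT. JAZ8, a repressor, had 5 counts in KD2, 19 in KD5 and 0 in WT (Potri.011G083900). The 2 further TIP1;3 matches had 2 counts in KD2, 16 in KD5 and 0 in WT (Potri.001G235300), and 5 in KD2, 28 in KD5 and 4 in WT (Potri.009G027200). Among those higher in KD2 were more matches to plastid loci. The match to ATCG00480, the ATP synthase beta subunit, had 19 counts in KD2, 7 in KD5 and 1 in WT (Potri.002G211100). The match to ATCG00900, ribosomal protein S7, had 41 counts in KD2, 18 in KD5 and 5 in WT (Potri.013G138900).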
